A study of Homo sapiens with 9 samples.

Results

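The levels of 10 antioxidant and iron storage genes were followed across RIVA lymphoma cells that expressed either of 2 lymphoma mutants of BCL10 or an empty vector. The genes were SOD2, FTH1, FTL, TXN, TXNRD1, SRXN1, GCLC, GCLM, HMOX1 and NQO1, which were chosen by name and make up 10 of the 60656 genes in the count table. RIVA is an established human cell line of the activated B cell-like subtype of DLBCL, a large-cell B lymphoma. All cells carried a puromycin-selected pLVX-TetOne lentiviral construct, in which doxycycline switches on the inserted gene. All, the vector cells included, received doxycycline at 200 ng/mL for 24 h. The constructs held no insert (vector), BCL10 truncated at residue S136 (S136X) or BCL10 with the missense change R58Q, each with 3 replicate libraries. The endogenous BCL10 of all 3 groups was wild type, and cells overexpressing wild-type BCL10 were not analysed here, so a mutant cannot be told apart from more BCL10 of any kind. Poly(A)-selected RNA was sequenced, and the measurement is the number of reads per gene.

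BCL10 is an adaptor protein that carries B cell receptor signals to NF-kB. SOD2 and FTH1 are textbook NF-kB target genes. Most of the other genes are known targets of NRF2, encoded by NFE2L2. Under basal conditions KEAP1 binds NRF2 and directs it to degradation. When KEAP1 is oxidised, NRF2 enters the nucleus, pairs with a small MAF protein and binds antioxidant response elements (AREs). BACH1 occupies the same elements as a repressor. Ferritin mRNAs have a further layer of control, since iron regulatory proteins bind a hairpin near their 5′ end and hold back translation without a change in mRNA.

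Depth ran from 28047713 to 33122267 counts per library with a median of 32185418, and no library fell far from the rest. BCL10 itself had 885, 1268 and 936 counts in the vector libraries, 14293, 13210 and 9838 with S136X and 10596, 10131 and 10117 with R58Q, which separates vector from mutant libraries as labelled but does not tell S136X from R58Q. The 8 B cell markers, such as MS4A1, CD79A, CD79B and PAX5, summed to between 4390 and 5720 CPM, the counts of a gene scaled to a common library total. Of 5 myeloid markers, 3 had at most 3 counts in every library, and the list summed to at most 0.505 CPM. Of 5 T cell markers, 3 had at most 3 counts in every library, CD3E had 1 to 9, and TRAC, which had 33 to 367, brought the sum to between 1.16 and 12.3 CPM. Of 4 epithelial markers, KRT19 was at 0 and KRT5 had at most 2 counts, while EPCAM had 1019 to 1751. The other, CDH1, had 53 to 391 counts, with means of 2.44 ± 1.31 CPM for vector, 6.26 ± 4.38 for S136X and 6.56 ± 4.69 for R58Q (SD, n = 3), and its part in the results was not tested. Levels below are CPM scaled by the TMM method over all 9 libraries, and differences come from the quasi-likelihood F test of edgeR with Benjamini-Hochberg adjustment over all genes tested. A gene was called where its adjusted p was under 0.05 and its difference at least 1.5-fold. Nothing in the labels says that replicates came from separate cultures, although the study calls them biological, so the p-values measure the spread between these libraries. In bulk RNA, more cells that express a gene and more RNA per cell cannot be told apart. All R58Q columns carry a later date than the vector and S136X columns, so the date and R58Q cannot be told apart.

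Among the 10 genes, the clearest differences were in TXN, FTL and SRXN1, all higher in both mutants. Of the 10, 1 was called with S136X (SRXN1) where 3.87% of 15530 tested genes were called, and 1 with R58Q (TXN) where 7.63% of 15435 were called. At an adjusted p under 0.05 without a fold limit, 3 were higher with S136X (TXN, FTL and SRXN1), against 6.03% of all genes in that direction, and 2 with R58Q (TXN and FTL), against 12.3%. None was lower at that limit in either mutant by edgeR, DESeq2 or limma. By edgeR, 4.1% of all genes were lower with S136X and 8.76% with R58Q. At an unadjusted p under 0.05, 0 of 10 were lower by each, with no share of all genes computed. Over all genes, 319 were called higher and 282 lower with S136X, and 632 and 546 with R58Q; with total-count scaling the split was 257 and 368, and 549 and 741. All 3 mutant libraries lay above all 3 vector libraries for 4 of the 10 genes with S136X (TXN, FTL, SRXN1 and TXNRD1), where 16% of all genes did so, and for 3 with R58Q (TXN, FTL and SRXN1), where 21.1% did. The median log2 fold change of the 10 genes was 0.16 with S136X and 0.14 with R58Q, beside -0.020 and -0.028 over all genes tested. Same-numbered libraries varied together, and a fit with the replicate number as a block put 5 of the 10 under 0.05 in each mutant, all higher and the same 5 genes (TXN, FTL, SRXN1, TXNRD1 and GCLM). In that fit 12.9% of all genes with S136X and 18.2% with R58Q were higher at the same limit, and 11.8% and 17% were lower. With 2 mutants compared to the same vector libraries, the 2 sets of differences are not independent.

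**Figure D1:**
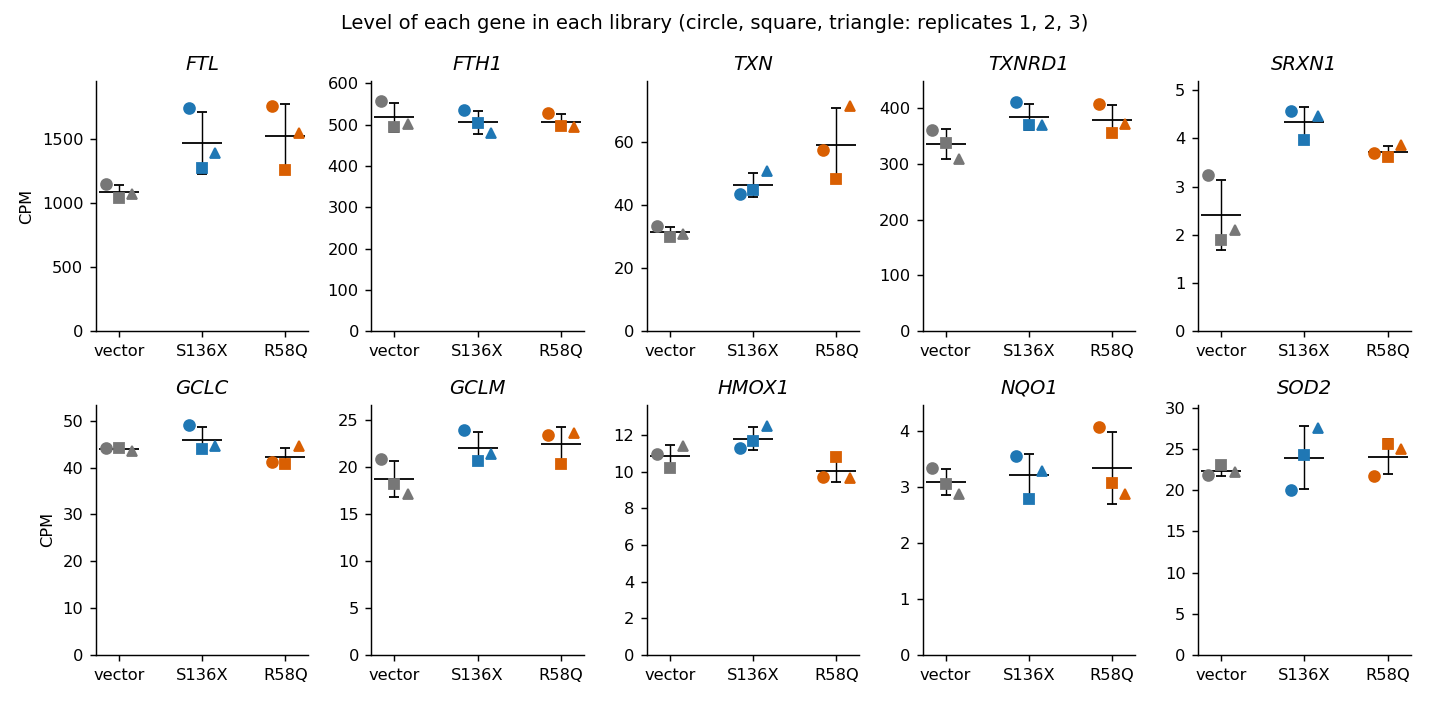
Each panel plots the CPM of 1 gene (vertical axis, starting at 0) in the 9 libraries, grouped as vector, S136X and R58Q; symbols give the replicate number, and bars the group mean and SD (n = 3). TXN ranged from 29.95 to 33.4 CPM in the vector libraries and from 43.5 to 71.4 in the mutants, while FTH1 stayed between 480.0 and 557 throughout.

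The ferritin shell is built of 2 kinds of subunit. FTH1 encodes the heavy chain, whose ferroxidase oxidises iron for storage, and FTL the light chain, which helps the iron core to form. Both mRNAs hold the iron responsive element, the hairpin described above. It is shown here because the pair share this element while only 1 of them differed between groups. Translation was not measured, so control through the element was not tested. The stretches run over bases 59 to 88 of transcript ENST00000273550.11 and bases 35 to 64 of ENST00000331825.10 (GENCODE 29), with the hexanucleotide loop in capitals, and 26 of their 30 bases are the same:
FTH1: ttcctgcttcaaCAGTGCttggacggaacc
FTL: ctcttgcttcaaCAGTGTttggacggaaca

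FTL rose in both mutants. Its level was 1146, 1039 and 1069 CPM in the vector libraries, 1740.5, 1273 and 1389 with S136X, and 1755, 1257 and 1549 with R58Q. All 6 mutant libraries lay above all 3 vector libraries, and in each mutant replicate 1 was the highest and replicate 2 the lowest. The means were 1085 ± 54.8 for vector, 1468 ± 243 for S136X and 1520.3 ± 250.2 for R58Q (SD, n = 3). The log2 fold change was 0.44 with S136X (SE 0.113, edgeR adjusted p = 0.0436) and 0.48 with R58Q (SE 0.117, edgeR adjusted p = 0.0228), which correspond to 1.35-fold and 1.40-fold. The S136X difference was near its limit: its edgeR adjusted p ranged from 0.0233 to 0.156 when single libraries were left out, and it was under 0.05 in 2 of those 6 fits. It was also not under 0.05 with upper-quartile scaling, total-count scaling or all 9 libraries in one fit (0.0635, 0.052 and 0.062). For R58Q the same range was 0.005 to 0.0946, with 3 of 6 under 0.05. With the replicate block, both had an edgeR adjusted p of 0.00109.

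FTH1 had 557, 494 and 502 CPM in the vector libraries, 535, 504 and 480.0 with S136X, and 528, 496 and 494 with R58Q. The 3 groups overlapped. Its log2 fold change was -0.03 in both mutants, with 95% intervals of -0.20 to 0.13 for S136X and -0.19 to 0.12 for R58Q (edgeR adjusted p = 0.814 and 0.754). In GENCODE 29, 62.4% of its exonic bases lie opposite exons of BEST1, which had 99 to 229 counts per library against at least 13681 for FTH1. Its processed pseudogenes, 24 named FTH1P and a number, together held 0.496% to 0.734% of the FTH1 count. The 16 FTLP pseudogenes held 0.0513% to 0.171% of the FTL count.

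The ratio of the 2 ferritin counts needs no scaling between libraries. FTH1 to FTL was 0.486, 0.475 and 0.469 in the vector libraries, 0.307, 0.396 and 0.346 with S136X, and 0.301, 0.395 and 0.319 with R58Q. Every mutant library was below every vector library. The mean log2 ratio was lower by 0.46 with S136X (value -0.46) and by 0.51 with R58Q (value -0.51). A 2-sided exact permutation test gave p = 0.1 for each, the smallest p that 3 libraries against 3 allow, and 0.15 after adjustment over the 6 ratio comparisons made. The mutants differed from each other by -0.05 (exact permutation p = 0.7). The ratio was lower in 3 of 3 same-numbered pairs in each mutant.

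**Figure D2:**
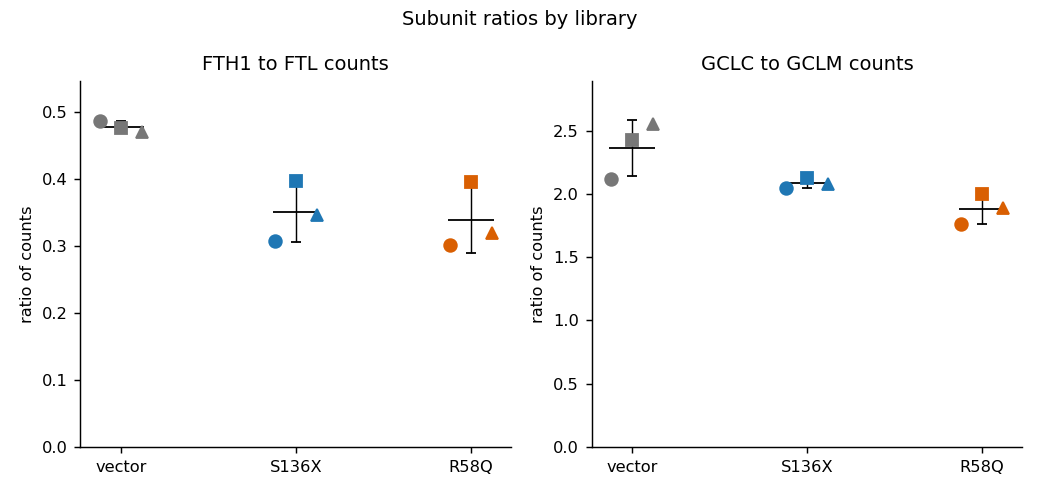
The ratio of FTH1 to FTL counts (left) and of GCLC to GCLM counts (right) is plotted for each library (vertical axes, no unit, from 0), with group mean and SD (n = 3). The 3 vector libraries sit between 0.469 and 0.486 in the left panel and the mutants between 0.301 and 0.396; in the right panel the vector mean is 2.37 and the R58Q mean 1.89.

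Of the 3 thioredoxin system genes among the 10, TXN rose in both mutants and SRXN1 with S136X. TXN encodes thioredoxin, the small protein that reduces oxidised protein disulfides. Its level was 33.4, 29.95 and 31.0 CPM in the vector libraries, 43.5, 44.8 and 50.9 with S136X and 57.6, 48.3 and 71.4 with R58Q. No mutant library overlapped the vector range. The means were 31.4 ± 1.77, 46.4 ± 3.92 and 59.1 ± 11.6 (SD, n = 3). TXN rose by a log2 fold change of 0.56 with S136X (SE 0.0830, 1.48-fold, edgeR adjusted p = 0.00524) and of 0.91 with R58Q (SE 0.131, 1.88-fold, edgeR adjusted p = 0.00295). It kept an adjusted p under 0.05 in all 6 fits without 1 library and all 9 other fits in each mutant. The 7 TXNP pseudogenes had 0 to 6 counts in all.

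TXN was also the gene of the 10 with the largest gap between the mutants. R58Q exceeded S136X by 0.34 on the log2 scale (95% interval 0.02 to 0.67), with overlapping groups, since replicate 2 of R58Q (48.3 CPM) lay below replicate 3 of S136X (50.9 CPM). The edgeR adjusted p was 0.43 without and 0.000958 with the replicate block, and the difference of 1.27-fold was under the fold limit in either fit. Under the block, 14.6% of 15195 genes had an adjusted p under 0.05 in this comparison. None of the 10 genes was called between the mutants, where 0.434% of all genes were (0.27% higher with R58Q); without a fold limit it was 0 of 10 against 0.533%. At an unadjusted p under 0.05 edgeR gave 2 of the 10 (TXN higher and HMOX1 lower), DESeq2 and limma 1 each, and neither DESeq2 nor limma gave 1 after adjustment. The share of all genes at that unadjusted limit was not computed, so these counts have no background to be read against.

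TXNRD1 encodes thioredoxin reductase 1, the selenoprotein that returns thioredoxin to its reduced form with electrons from NADPH. Its level was 360.1, 338 and 308 CPM with vector, 409.7, 369 and 370.0 with S136X and 407, 354 and 371 with R58Q. The S136X libraries lay above all vector libraries, and 1 R58Q library fell within the vector range. The log2 fold change was 0.19 with S136X (95% interval 0.02 to 0.37) and 0.17 with R58Q (95% interval -0.01 to 0.35), with edgeR adjusted p = 0.153 and 0.168. With the replicate block the edgeR adjusted p was 0.0161 and 0.0392. All 3 same-numbered pairs were higher in each mutant.

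SRXN1 encodes sulfiredoxin, which repairs over-oxidised peroxiredoxins. It was among the least expressed of the 10, with 109, 62 and 71 counts in the vector libraries, 134, 128 and 127 with S136X, and 110, 108 and 126 with R58Q. In CPM these were 3.24, 1.89 and 2.09 for vector, 4.58, 3.97 and 4.46 for S136X and 3.71, 3.61 and 3.85 for R58Q. Vector replicate 1 lay nearer to the mutants than to the other vector libraries, although no groups overlapped. The log2 fold change was 0.85 with S136X (SE 0.222, edgeR adjusted p = 0.0453) and 0.63 with R58Q (SE 0.218, edgeR adjusted p = 0.0751). The R58Q value became a call with the replicate block (edgeR adjusted p = 0.0251, where 10.7% of all genes were called) and without vector replicate 1 (log2 fold change 0.91, edgeR adjusted p = 0.0143). The S136X call was lost with upper-quartile or total-count scaling (edgeR adjusted p = 0.0534 and 0.0565) and without vector replicate 2, vector replicate 3 or any S136X replicate (edgeR adjusted p = 0.0722 to 0.17). In GENCODE 29, 85% of SRXN1 exonic bases are also exonic in AL121758.1 on the same strand, a gene with 0 counts in all libraries. How such reads were assigned is not given in the sources used here, so the level of SRXN1 is uncertain.

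**Figure D3:**
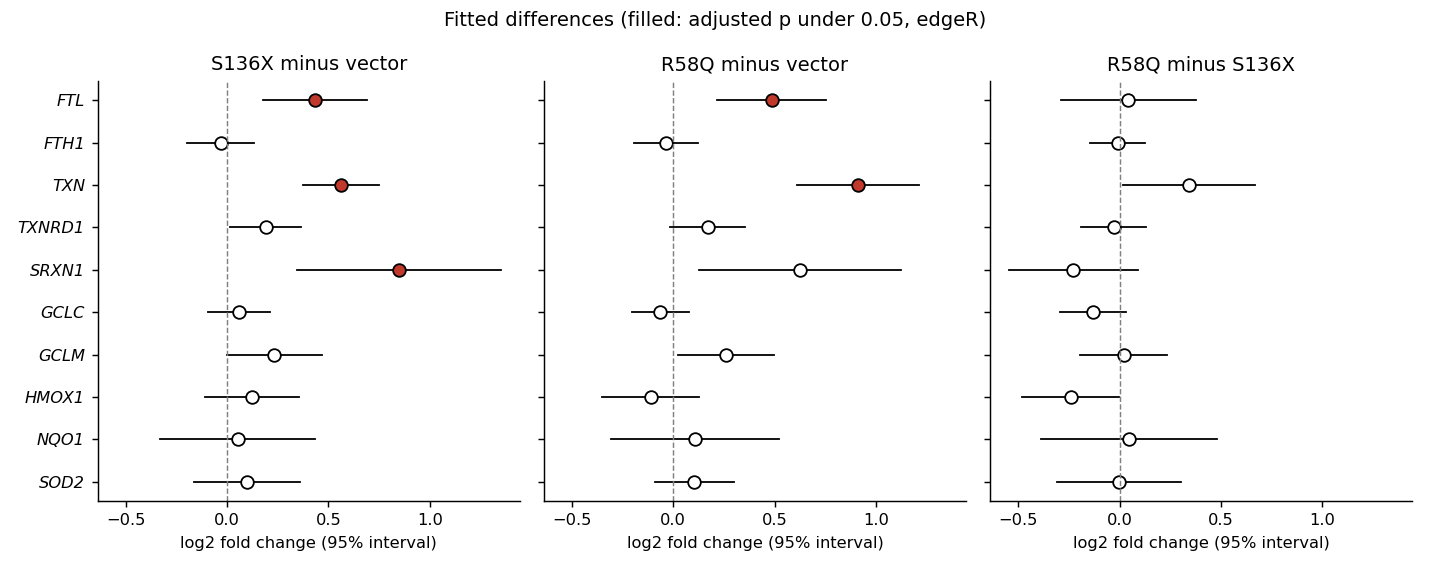
Fitted log2 fold changes (points) with 95% intervals (lines) are plotted for the 10 genes in S136X minus vector, R58Q minus vector and R58Q minus S136X; filled points have an edgeR adjusted p under 0.05 without the replicate block. TXN and FTL are filled in both comparisons with vector, SRXN1 in the first, and none of the 10 between the mutants.

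Glutathione synthesis starts with glutamate-cysteine ligase, the rate-limiting enzyme, made of a catalytic subunit (GCLC) and a modifier subunit (GCLM) that raises its activity. GCLC had 44.2, 44.3 and 43.6 CPM with vector, 49.0, 44.0 and 44.6 with S136X and 41.2, 40.7 and 44.6 with R58Q. Its groups overlapped, and its log2 fold change was 0.06 with S136X (95% interval -0.09 to 0.21) and -0.06 with R58Q (95% interval -0.21 to 0.08). GCLM had 20.8, 18.2 and 17.1 CPM with vector, 23.9, 20.6 and 21.4 with S136X and 23.4, 20.3 and 23.6 with R58Q. Its groups also overlapped through vector replicate 1. The log2 fold change of GCLM was 0.23 with S136X (edgeR adjusted p = 0.191) and 0.26 with R58Q (edgeR adjusted p = 0.109), and all 3 same-numbered pairs were higher in each mutant. With the replicate block the edgeR adjusted p was 0.0451 and 0.038.

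The ratio of GCLC to GCLM counts was 2.12, 2.43 and 2.55 in the vector libraries, 2.05, 2.13 and 2.08 with S136X and 1.76, 2.00 and 1.89 with R58Q. The R58Q ratios lay below all others, while S136X replicate 2 reached the vector range. The mean log2 ratio differed from vector by -0.18 with S136X (exact permutation p = 0.2, adjusted 0.24) and by -0.33 with R58Q (exact permutation p = 0.1, adjusted 0.15), and between the mutants by -0.15 (exact permutation p = 0.1, adjusted 0.15). The ratio was lower in 3 of 3 same-numbered pairs in each mutant, where the exact permutation p of 0.25 is the smallest that 3 pairs allow.

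GCLM and TXNRD1 were the only 2 of the 8 genes with a RefSeq promoter (GRCh38.p14) that held the ARE core TGACNNNGC on either strand within 250 bases before a listed start. The motif occurred in 10.9% of 35116 promoters and in 3 of the 12 listed for these genes: the 1 of GCLM and both of TXNRD1. FTH1 and HMOX1 were not in the promoter set used here. Each 30-base window below reads in the direction of the gene, with the match in capitals; where the match lies on the opposite strand, the capitals show its complement, GCNNNGTCA. The 5′-most base of the match is 34 bases before the start for GCLM, and 99 and 102 bases before the 2 starts for TXNRD1:
GCLM, chr1:93909445-93909474, minus strand: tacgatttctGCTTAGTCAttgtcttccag
TXNRD1, chr12:104215670-104215699, plus strand: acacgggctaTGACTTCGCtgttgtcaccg
TXNRD1, chr12:104286920-104286949, plus strand: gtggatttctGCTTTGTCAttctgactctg

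None of the 12 promoters held the AP-1 motif (TGACTCA or TGAGTCA), found in 4.2% of all, or the NF-kB consensus, found in 9.96%. The 4 promoters listed for SOD2 and the 1 each of FTL, TXN, SRXN1, GCLC and NQO1 thus had no match to the letters searched in this window. Some windows lie within a gene, before an internal start, such as the second of TXNRD1. Sequence outside the windows, further upstream or within the genes, was not searched, so an element there would be missed.

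SOD2, the mitochondrial manganese superoxide dismutase, had 21.8, 23.0 and 22.3 CPM with vector, 20.1, 24.3 and 27.6 with S136X and 21.7, 25.6 and 25.0 with R58Q. The mutant groups reached both below and above the vector range, and replicate 1 was the lowest in all 3 groups. The log2 fold change was 0.10 in both mutants, with 95% intervals of -0.16 to 0.36 for S136X and -0.09 to 0.30 for R58Q (edgeR adjusted p = 0.629 and 0.42). An increase of 1.5-fold, 0.585 on the log2 scale, lies outside both intervals. In GENCODE 29, 6.93% of SOD2 exonic bases are also exonic in other genes. These are a second gene named SOD2 on the same strand, not used here, and WTAP on the opposite strand (2230 to 2739 counts). The share is of bases, not of reads, so it does not bound how uncertain the level of SOD2 is. The intervals above cover only the reads that were assigned to the SOD2 row used here.

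HMOX1, the heme-degrading enzyme that frees iron from heme, had 10.98, 10.2 and 11.4 CPM with vector, 11.3, 11.7 and 12.5 with S136X and 9.71, 10.8 and 9.67 with R58Q. Its log2 fold change was 0.12 with S136X and -0.11 with R58Q (edgeR adjusted p = 0.489 and 0.477). All R58Q libraries lay below all S136X libraries, with a difference of -0.24 (95% interval -0.48 to -0.0012, edgeR adjusted p = 0.453, 0.0602 with the block). SRXN1 was the other gene of the 10 whose R58Q libraries all lay below S136X, by -0.23 (edgeR adjusted p = 0.638), where 7.57% of all genes showed that order. NQO1, a quinone reductase widely used as an NRF2 readout, had 90 to 121 counts per library. It had 3.35, 3.06 and 2.88 CPM with vector, 3.55, 2.79 and 3.30 with S136X and 4.08, 3.07 and 2.88 with R58Q. The groups overlapped, and its log2 fold change was 0.05 with S136X (95% interval -0.33 to 0.44) and 0.11 with R58Q (95% interval -0.31 to 0.52).

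**Figure D4:**
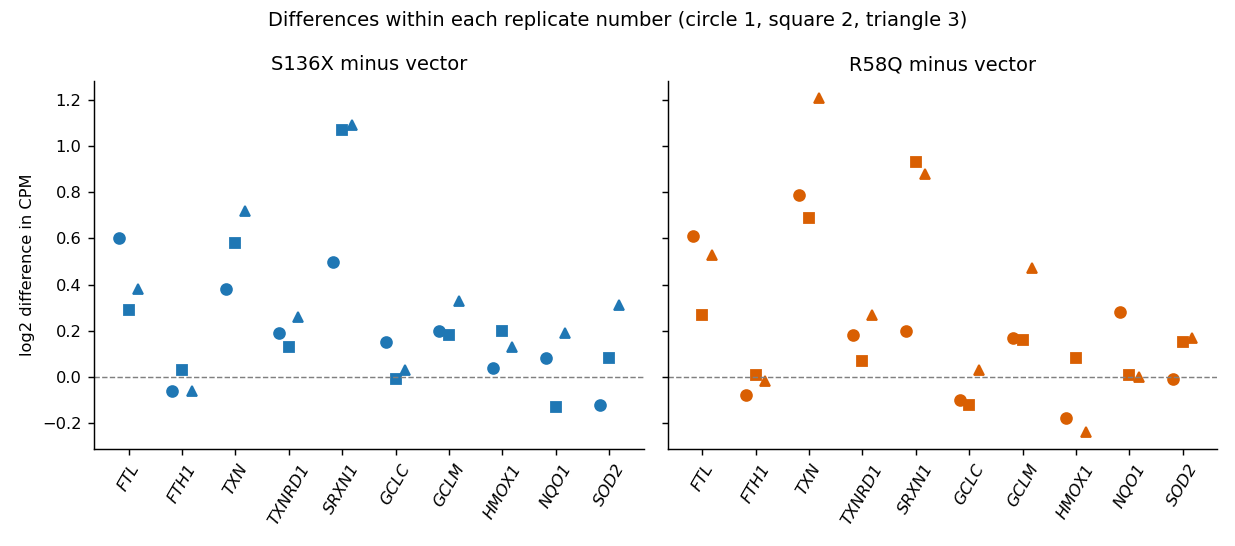
For each gene, the log2 difference in CPM between a mutant library and the vector library with the same replicate number is plotted (circle, square and triangle for replicates 1, 2 and 3), for S136X on the left and R58Q on the right. FTL, TXN, TXNRD1, SRXN1 and GCLM lie above 0 in 3 of 3 pairs in both panels, while FTH1 lies between -0.08 and 0.03.

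Per kilobase of the principal GENCODE transcript, FTL had the highest level in the vector libraries (1236 ± 62.4 CPM per kb), followed by FTH1 (421 ± 28.0), TXNRD1 (78.4 ± 6.09) and TXN (36.2 ± 2.03). GCLC followed at 11.5 ± 0.0991, HMOX1 at 5.95 ± 0.339, GCLM at 3.85 ± 0.397 and SOD2 at 1.57 ± 0.0426 CPM per kb, where the SOD2 transcript used is 14266 bases long. A shorter SOD2 transcript would give a higher value, so the place of SOD2 in this order depends on that length. NQO1 (1.06 ± 0.0816) and SRXN1 (0.892 ± 0.268) came last, and their ranges overlapped. With R58Q, TXN reached 68.0 ± 13.4 and TXNRD1 88.3 ± 6.28 CPM per kb.

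Over the 9 libraries, log2 CPM of FTL, TXN, TXNRD1, SRXN1 and GCLM correlated pairwise with Pearson's r of 0.63 (TXN and TXNRD1) to 0.94 (TXNRD1 and GCLM), while SOD2 and FTH1 gave -0.79. These values are descriptive, since the libraries fall into 3 groups and share their replicate numbers. Of 15860 genes, those with the most similar pattern were CTTN (r = 0.987) and ECPAS (r = 0.981) for FTL, AC100803.4 (r = 0.981) and CD86 (r = 0.974) for TXN, and ME2 (r = 0.984) and TNPO3 (r = 0.983) for TXNRD1. For SRXN1 they were MRPS2 (r = 0.987) and CLTB (r = 0.983), for GCLM TNPO3 (r = 0.977) and NUDT19 (r = 0.964), and for FTH1 MRPL57 (r = 0.971) and PGRMC1 (r = 0.961). For SOD2 they were LEMD2 (r = 0.965) and MIR106B (r = 0.941), for GCLC PLBD2 (r = 0.951) and MAP4K5 (r = 0.944), for HMOX1 PIAS3 (r = 0.939) and AC090984.1 (r = 0.931), and for NQO1 LRRC23 (r = 0.933) and APOE (r = 0.93).

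Of 100 other genes of these pathways, 83 were tested in each comparison. With S136X, 4 were called, all higher, and with R58Q 6, all higher, against 2.05% and 4.09% of all genes in that direction. Without the fold limit, 10 were higher and 2 lower with S136X (6.03% and 4.1% of all genes), and 18 higher and 2 lower with R58Q (12.3% and 8.76%). With the replicate block, 21 were higher and 11 lower with S136X, against 12.9% and 11.8% of all genes, and 24 higher and 9 lower with R58Q, against 18.2% and 17%. The median log2 fold change of the 83 was 0.04 and 0.08.

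Among the 10 NRF2 regulators, 2 had an adjusted p under 0.05 with S136X and 6 with R58Q, all higher, and 1 of these was called, with R58Q. Of all genes, 6.03% with S136X and 12.3% with R58Q were higher at an adjusted p under 0.05. With the replicate block 7 of the 10 passed in each mutant, 6 higher and 1, BACH2, lower. In that fit 12.9% of all genes were higher and 11.8% lower with S136X, and 18.2% and 17% with R58Q. NFE2L2 had 65.7, 63.7 and 62.1 CPM with vector, 67.7, 68.5 and 73.2 with S136X and 72.2, 76.8 and 81.7 with R58Q. Its log2 fold change was 0.13 with S136X (edgeR adjusted p = 0.214) and 0.27 with R58Q (edgeR adjusted p = 0.0223). KEAP1, its inhibitor, had a log2 fold change of 0.21 with S136X (edgeR adjusted p = 0.15) and 0.28 with R58Q (edgeR adjusted p = 0.0367). The R58Q values of both passed in 7 of 9 alternative fits and not under upper-quartile or total-count scaling. When single libraries were left out, NFE2L2 passed in 3 of 6 fits (edgeR adjusted p up to 0.0906) and KEAP1 in 1 of 6 (up to 0.131). BACH1 had a log2 fold change of -0.15 with S136X (edgeR adjusted p = 0.187) and 0.05 with R58Q (edgeR adjusted p = 0.575). BACH2, a related repressor of B cells, had 32.7, 41.8 and 36.1 CPM with vector, 9.23, 31.9 and 16.6 with S136X and 12.3, 31.3 and 18.5 with R58Q. Every mutant library lay below every vector library, and replicate 2 was the highest in each group. Its log2 fold change was -0.94 with S136X (edgeR adjusted p = 0.13, 0.00399 with the block) and -0.84 with R58Q (edgeR adjusted p = 0.0689, 0.00185 with the block). MAFF, a small MAF protein, had 6.17, 5.78 and 5.15 CPM with vector and 10.99, 8.99 and 8.04 with R58Q, a rise of 0.71 on the log2 scale (edgeR adjusted p = 0.014). That call was lost without vector replicate 2 or vector replicate 3 (edgeR adjusted p = 0.0554 and 0.0535). With S136X its value was 0.42 (edgeR adjusted p = 0.151). The others with an adjusted p under 0.05 with R58Q were MAFG, MAFK and SQSTM1. The list of other NRF2 targets, such as SLC7A11, had 11 tested genes. Without the block, none passed an adjusted p of 0.05 in either mutant by edgeR or limma. At an unadjusted p under 0.05 edgeR gave 1 with S136X, higher, and 5 with R58Q, of which 3 were lower. DESeq2 passed 2 with R58Q: ABCC1, lower (means of 191 CPM with vector and 169 with R58Q), and TALDO1, higher (183 and 214). With the block, 2 of the 11 passed with S136X, both higher, against 12.9% of all genes in that direction.

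In the iron and heme list, 2 of 17 tested genes were called in each mutant, both higher, against 2.05% and 4.09% of all genes in that direction. TFRC, the transferrin receptor, had 209, 204 and 199 CPM with vector, 349.7, 307 and 320.4 with S136X and 369, 308 and 339 with R58Q. The mutant libraries all lay far above the vector range. TFRC rose by 0.67 with S136X and 0.73 with R58Q on the log2 scale (edgeR adjusted p = 0.000829 and 0.000661). SLC39A14, an importer of iron not bound to transferrin, and of zinc, had 40.3, 39.0 and 37.8 CPM with vector, 69.9, 59.9 and 62.1 with S136X and 71.4, 59.1 and 61.1 with R58Q. It rose by 0.71 in each mutant (edgeR adjusted p = 0.00125 and 0.00113). As with FTL, replicate 1 was the highest and replicate 2 the lowest for both genes in each mutant. ACO1 and IREB2, which encode the iron regulatory proteins, did not pass, with log2 fold changes of 0.01 and 0.06 with S136X and -0.00027 and 0.11 with R58Q. SLC11A2, an iron transporter of the endosome and cell surface, had means of 25.9, 25.7 and 25.6 CPM with vector, S136X and R58Q. These 3 genes were named after their values were seen.

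Of the 17 tested glutathione genes, 2 were higher and 2 lower at an adjusted p under 0.05 with S136X (6.03% and 4.1% of all genes). With R58Q, 3 were higher and 1 lower (12.3% and 8.76% of all genes). The 1 call was SLC3A2, the heavy chain that carries cystine and amino acid transporters to the cell surface. It had 165, 155 and 147 CPM with vector, 226, 204 and 212 with S136X and 391.9, 325 and 330.4 with R58Q. The 3 groups were fully separate. SLC3A2 had a log2 fold change of 0.46 with S136X (edgeR adjusted p = 0.00519) and 1.16 with R58Q (edgeR adjusted p = 0.000133). Of 16 tested thioredoxin and peroxiredoxin genes beyond the 10, 1 was higher with S136X, against 6.03% of all genes. With R58Q, 3 were higher (TXNL1, PRDX3 and PRDX4), against 12.3%, and none was called in either mutant. Without the replicate block, none of the 3 tested genes of the superoxide dismutase and catalase list passed by edgeR, DESeq2 or limma. At an unadjusted p under 0.05 edgeR gave 0 with S136X and 1, lower, with R58Q. With the block, CAT, which encodes catalase, was lower with S136X at an adjusted p under 0.05, as were 11.8% of all genes.

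MT2A, a metallothionein that binds zinc and other metals, had 3.62, 4.89 and 6.45 CPM with vector, 21.1, 29.4 and 38.7 with S136X and 28.98, 31.5 and 41.7 with R58Q. It rose by 2.58 and 2.77 on the log2 scale (edgeR adjusted p = 0.000879 and 0.000153), the 1 call among 3 tested metallothioneins. Of all genes, 2.05% were called higher with S136X and 4.09% with R58Q.

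**Figure D5:**
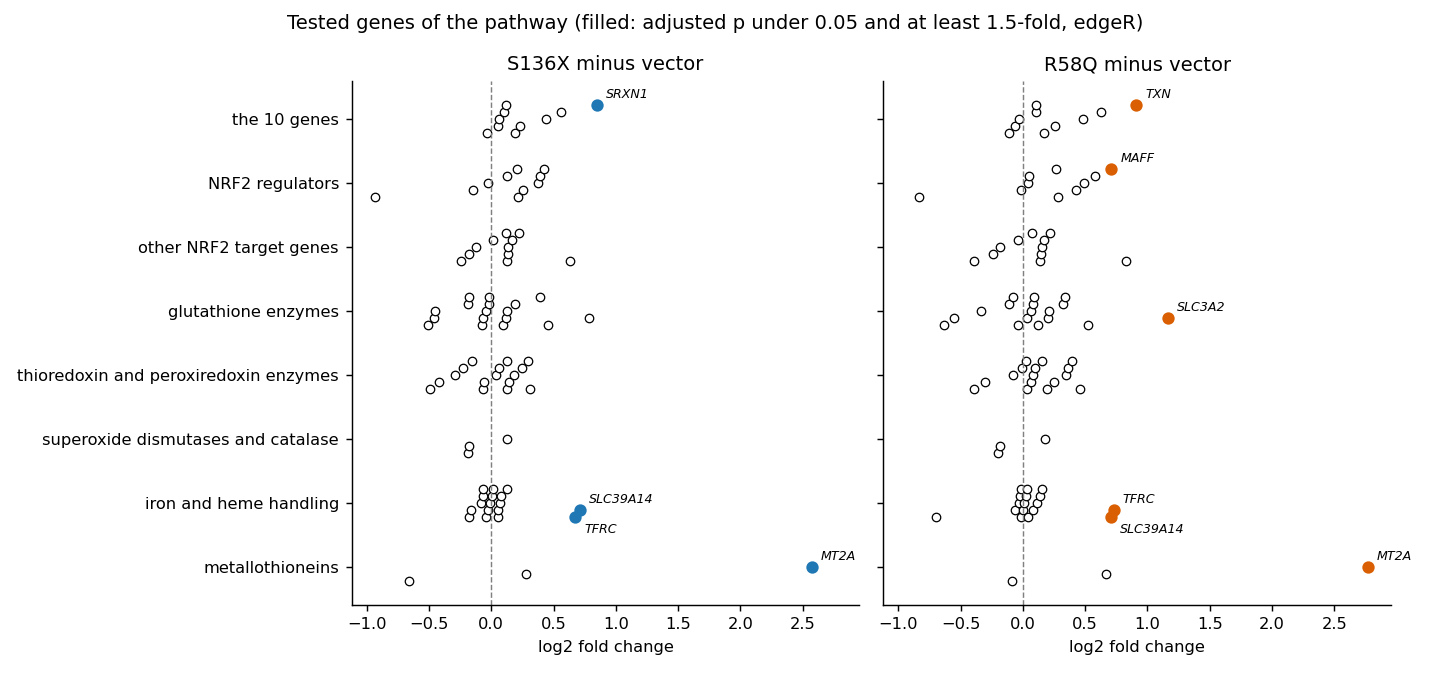
The log2 fold change (horizontal axis) of tested genes is plotted for the 10 genes and 7 of the lists, for S136X minus vector (left) and R58Q minus vector (right); filled points were called (edgeR adjusted p under 0.05 and at least 1.5-fold) and are named, and vertical offsets only separate points. All called points lie on the higher side, from 0.67 (TFRC with S136X) to 2.77 (MT2A with R58Q).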

How the data were processed

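The deposited table holds raw read counts per gene for 9 libraries, beside 9 normalized columns that were not used. The authors made poly(A) libraries, sequenced single 100-base reads over 2 runs and combined them; their processing notes name cutadapt, STAR, Picard and build hg38. The program that counted reads, its annotation and its strand setting are not given in the sources used here. Overlapping genes, such as SRXN1 and AL121758.1, are therefore uncertain. The protocol gives doxycycline at 200 ng/mL; the sample characteristics give the same number per uL.

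Genes were filtered with filterByExpr (minimum count 10, minimum total 15), scaled by TMM and tested with the quasi-likelihood F test of edgeR 4.0.16 (R 4.3.3) for each pair of groups on its 6 libraries, with Benjamini-Hochberg adjustment. No p-value was adjusted over the 10 genes alone. For counts at an unadjusted p under 0.05, the share of all genes was not computed. CPM used TMM factors over all 9 libraries, and log2 CPM for correlations a prior count of 2. DESeq2 1.42.0, limma 3.58.1 (voom), other scalings and filters, all 9 libraries in one fit, a replicate block and leaving out each library were the alternatives. Replicate numbers come from the sample titles. Deviations from group means correlated at 0.143 to 0.626 (median 0.425) in all 9 same-numbered pairs. In the 18 different-numbered pairs they correlated at -0.459 to 0.169 (median -0.251). Deviations cancel within each group, so positive same-numbered values by themselves push the different-numbered values down. The replicate numbers were taken to pair the libraries, although these ranges overlap and the labels state no shared source for same-numbered libraries. The R58Q columns also carry a later date than the columns they were paired with. Replicates of a group were not copies of 1 library: the chi-square of their counts, divided by its degrees of freedom, was 7.82 to 24.3. The fits were tested on simulated data.

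The 10 genes and the lists were chosen with earlier results of these data known. Named were all 10 genes, BCL10, NFE2L2, KEAP1, BACH1, the list genes called in either mutant against vector (at most 4 a list and direction), the FTH1P, FTLP and TXNP pseudogenes, and for each of the 10 the 2 genes of highest correlation. MAFG, MAFK, SQSTM1, SLC7A11, TXNL1, PRDX3, PRDX4, ABCC1, TALDO1, BACH2, CAT, CDH1, ACO1, IREB2, SLC11A2 and the genes overlapping the 10 were named after their values were seen. Counts cover whole lists, some items of which are not reported here. Transcript sequences and overlaps come from GENCODE 29, where 100-base words were compared between genes, and promoters from RefSeq (GRCh38.p14, 8 of 10 genes matched).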

Additional observations from a re-analysis of the deposited data

Results flagged for a closer look

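SLC3A2 differed between the mutants when R58Q was tested against S136X, where 0.27% of all genes were called higher; no gene of the 10 was called. It was higher with R58Q by 0.70 on the log2 scale (SE 0.0807, edgeR adjusted p = 0.0154), and every R58Q library lay above every S136X library. The call was lost without S136X replicate 2, S136X replicate 3 or R58Q replicate 3 (edgeR adjusted p = 0.0728 to 0.14). The R58Q columns also carry the later date, which cannot be told apart from the mutant.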

How the results depend on the processing

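With S136X, the number of the 10 genes called was 1. It became 0 with upper-quartile scaling, total-count scaling or an adjusted p under 0.01, 3 without the fold limit, and 0 to 2 without single libraries: 2 without vector replicate 1, 0 without vector replicate 2, vector replicate 3 or S136X replicate 3. Among the fits without single libraries, SRXN1 passed only without vector replicate 1, so a count of 1 in another of them was a different gene. With R58Q it was 1, and 2 with no filter, with all 9 libraries in one fit, with the replicate block and without the fold limit, and 1 to 2 without single libraries. With the block, 10.7% of all genes were called with R58Q, against 7.63% without it. For the list genes, removing the fold limit raised the calls from 4 to 12 with S136X and from 6 to 20 with R58Q. The calls over all genes were 3.87% and 7.63%. Without the fold limit, 6.03% of all genes were higher and 4.1% lower with S136X, and 12.3% and 8.76% with R58Q. With R58Q the called list genes numbered 10 with no filter and 6 to 10 without single libraries, the highest without R58Q replicate 2. The shares of all genes in those fits were not computed. Between the mutants the 2 list genes became 0 at an adjusted p under 0.01 and 0 to 2 without single libraries. The FTH1 to FTL ratio between the mutants changed sign without S136X replicate 2 (0.04) or R58Q replicate 1 (0.03); it ranged from -0.17 to 0.04. The replicate block kept the direction of all 6 ratio differences. Causes of these changes were not tested beyond the fewer libraries or looser limits that define them. SRXN1 and NQO1, at 62 to 134 counts per library, set the limit of resolution among the 10.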
